A study of Mus musculus with 6 samples.

Results

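Nefl, Nefm, Nefh, Ina, Prph, Tubb3, Mapt, Stmn2, Stmn4 and Gap43 encode neurofilament chains and other proteins of the axonal cytoskeleton and growth cone. These 10 of the 14865 genes listed in a cochlear RNA-seq table were selected by symbol, on the contrast between genotypes described here and on the weight that a single library carries in it. Their difference between genotypes is therefore given as a description, without a test. The table held 6 libraries of cochlear duct RNA from C57BL/6 mice at postnatal day 8, 3 from wild-type Gfi1+/+ mice and 3 from Gfi1Cre/+ mice. In Gfi1Cre/+ mice, a Cre recombinase coding sequence was knocked into 1 copy of Gfi1, so Cre is driven from the Gfi1 locus. One functional copy of this transcriptional repressor remains. The authors found Cre recombination in hair cells (HCs) and in immune cells of the inner ear. For the immune cells they state that this need not mean expression of the gene at the age analyzed. Each Gfi1+/+ library came from 2 cochleae of 1 mouse, whereas each Gfi1Cre/+ library pooled 6 cochleae of 3 mice. The groups were unequal in sex as well: 4 genes differed at an adjusted p under 0.05 (limma, Benjamini-Hochberg), 0.0277% of the 14455 genes tested, and all 4 were Y-linked, so sex and genotype cannot be told apart.

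Neurofilaments are the intermediate filaments of axons. Light, medium and heavy chains copolymerize, with alpha-internexin or peripherin as further partners, and fill large myelinated axons, whose caliber depends on them. Microtubules built with neuronal tubulin, and bound or destabilized by tau and stathmins, run beside them, and the growth-associated protein Gap43 marks growing endings. In the cochlea these proteins are known from the spiral ganglion neurons, whose peripheral processes contact the HCs, and from the efferent fibers. Peripherin is a known marker of the unmyelinated type II afferents that contact outer HCs. In bulk RNA, fewer cells of a type and less RNA per cell cannot be told apart.

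Values are read counts per gene scaled by 1 factor for each library, here called normalized reads. Recovered reads per library ran from 13603908 to 19359753. Gfi1+/+ replicate 1 stood apart from the other libraries. On the first principal component, which held 54.3% of the variance, this library was at -44.0 and the other libraries between -0.304 and 16.2. Results are therefore given with and without it. The 10 axonal cytoskeleton genes together took 5.75 of every 10000 reads in Gfi1+/+ replicate 1, 1.89 in replicate 2 and 1.10 in replicate 3. The corresponding shares in Gfi1Cre/+ were 0.808, 1.09 and 1.24 reads per 10000. Gfi1 itself was at 146.9, 160.2 and 152 normalized reads in Gfi1+/+ and at 136, 129.6 and 139 in Gfi1Cre/+. As this count includes exons that the knock-in leaves in place, it checks the labels only in part.

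Gfi1+/+ replicate 1 was the highest library for all 10 genes, beside 3598 of 14455 genes tested. Its level was more than 2-fold above both other Gfi1+/+ libraries for 8 of the 10, beside 1.51% of all genes tested. As the genes were selected on the weight of a single library, these counts carry no weight beyond describing them. Gfi1Cre/+ replicate 1 was the lowest library for 8 genes, and Gfi1+/+ replicate 3 for Prph and Gap43. In all 10 genes replicate 2 of Gfi1+/+ exceeded replicate 3. The value of Gfi1+/+ replicate 3 lay inside the range of the Gfi1Cre/+ libraries for 6 genes, above it for 2 and below it for 2.

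**Figure D1:**
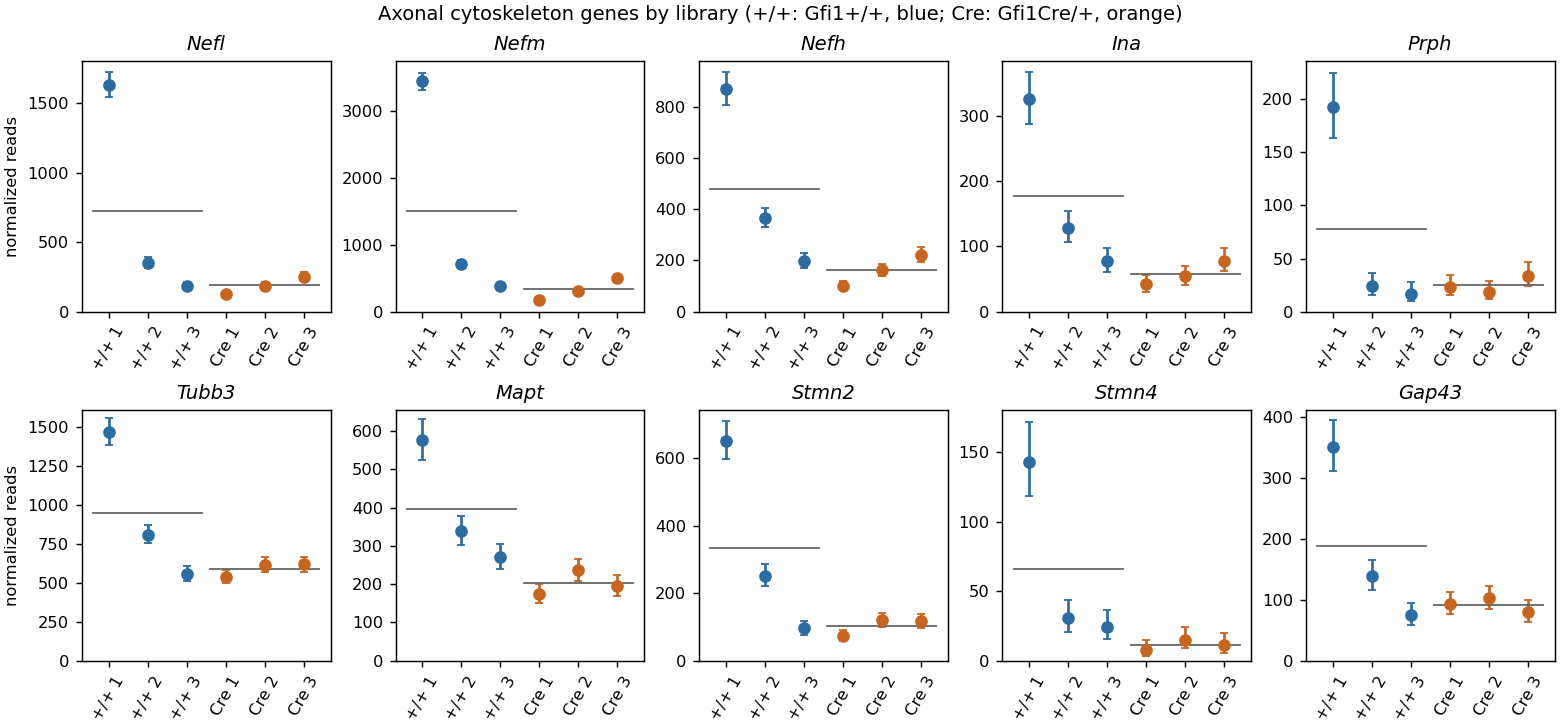
Normalized reads (y axis, linear from 0, a scale per gene) of the 10 axonal cytoskeleton genes in each library (x axis). Blue points are Gfi1+/+, orange points Gfi1Cre/+, bars exact Poisson 95% intervals of the counting error only, and grey lines the means of 3 libraries. Gfi1+/+ replicate 1 is the highest point in all 10 panels, and only in the Mapt and Stmn4 panels do all orange points lie below all blue points.

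Nefl, the light chain on which the filament assembles, was at 1631, 351 and 181 normalized reads in the Gfi1+/+ libraries and at 129, 186 and 252 in the Gfi1Cre/+ libraries. Nefm, the medium chain, was at 3449, 712 and 378 in Gfi1+/+ and at 178, 315 and 499 in Gfi1Cre/+. Nefh, the heavy chain whose phosphorylated tail spaces the filaments, was at 870.2, 366 and 198 in Gfi1+/+ and at 100.1, 162 and 223 in Gfi1Cre/+. For each of the triplet genes a single Gfi1+/+ library lay far above the rest, replicate 1 was the lowest and replicate 3 the highest of the Gfi1Cre/+ libraries, and the third Gfi1+/+ library fell between Gfi1Cre/+ libraries, so the genotypes overlapped.

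The group mean of Nefl was 721 ± 792 normalized reads (SD, n = 3) in Gfi1+/+ and 189 ± 61.6 (SD, n = 3) in Gfi1Cre/+, and for Nefm the means were 1513 ± 1685 and 331 ± 161 (SD, n = 3 each). In Gfi1+/+ the SD exceeded the mean for both. On the scale of log2(normalized reads + 1), Gfi1Cre/+ minus Gfi1+/+ was -1.37 ± 0.98 (SE) for Nefl, -1.68 ± 1.04 for Nefm and -1.37 ± 0.70 for Nefh. Without Gfi1+/+ replicate 1 the same log2 differences were -0.47, -0.77 and -0.81.

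Nefl and Nefm are neighbors on chromosome 14 (GRCm38), Nefl at chr14:68083863-68089095 on the plus strand and Nefm at chr14:68082590-68124846 on the minus strand, and their annotated exons share 1108 bases. This overlap is 32.8% of the exonic length of Nefl and 19.2% of that of Nefm. The strand setting of the counting was not given in the sources used here, so the split of reads between both genes is uncertain. Nefh lies on chromosome 11 with no such overlap.

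Per kilobase of the annotated coding transcript, Nefm made up 59.6% of the triplet in Gfi1+/+ replicate 1, between 52.2% and 52.3% in the other Gfi1+/+ libraries, and between 45.9% and 53.5% in Gfi1Cre/+. Nefh made up 12.6% in Gfi1+/+ replicate 1, while it was at 22.4% and 22.9% in the other Gfi1+/+ libraries and between 19.9% and 21.5% in Gfi1Cre/+. The library with the most triplet RNA thus had the smallest share of the heavy chain, and it lay outside the range of the other 5 libraries. The normalized reads of Nefh over those of Nefl gave 0.534 in that library and ranged from 0.777 to 1.09 in the others.

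**Figure D2:**
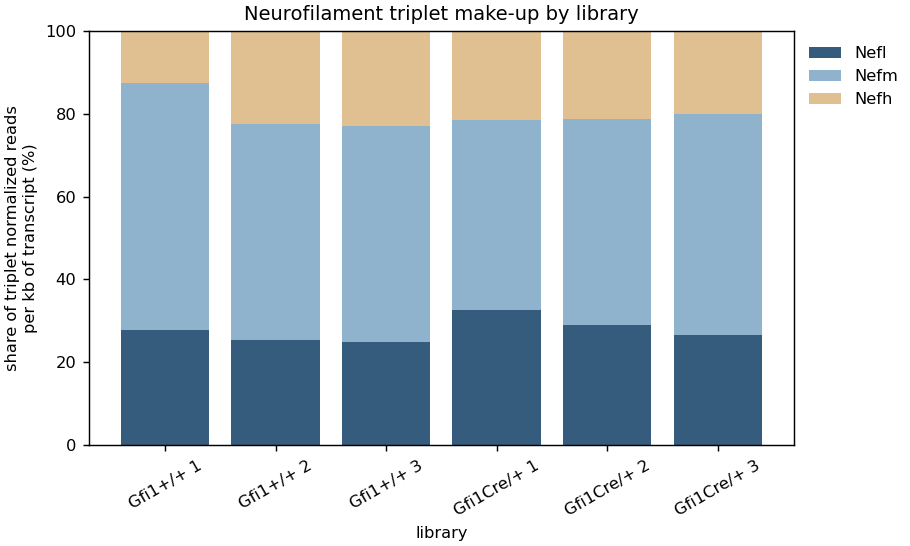
Share of Nefl, Nefm and Nefh (stacked bars, %) in the summed normalized reads per kilobase of transcript of the triplet, by library (x axis). The Nefh segment is 12.6% in Gfi1+/+ replicate 1 and between 19.9% and 22.9% in the other libraries.

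Ina, alpha-internexin, copolymerizes with the triplet and appears early in neuronal development. It was at 326, 129 and 77.0 normalized reads in Gfi1+/+ and at 41.8, 54.2 and 78.3 in Gfi1Cre/+. The third Gfi1Cre/+ library was level with the third Gfi1+/+ library, and the remaining Gfi1Cre/+ libraries were below all Gfi1+/+ libraries. The log2 difference of Ina was -1.38 ± 0.66 (SE), and -0.81 without Gfi1+/+ replicate 1. Ina shares 456 exonic bases, 14.1% of its exonic length, with Nt5c2 on the opposite strand, so some reads could belong to either gene.

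Prph, peripherin, was at 193, 24.1 and 16.9 normalized reads in Gfi1+/+ and at 23.5, 18.6 and 34.0 in Gfi1Cre/+. Only the first Gfi1+/+ library departed from a low level, where Prph had between 16 and 36 recovered reads. Its log2 difference was -0.79 ± 1.10 (SE) with all libraries and changed sign to 0.28 without Gfi1+/+ replicate 1, the only such change among the 10 genes. Prph and Stmn4 reached the minimum of 40 normalized reads for testing through Gfi1+/+ replicate 1 alone.

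RefSeq promoter sequences (GRCm38.p6, the 250 bases before the annotated start, plus strand) were at hand for Ina, Prph and Tubb3. Those of Ina (chr19:47014431-47014680) and Prph (chr15:99054924-99055173) are shown as those of the intermediate filament genes that partner the triplet and for which a window was at hand. The window of Tubb3 runs past its gene start in GENCODE and is not printed. Capitals mark a TATA box (TATAAA), a GC box (GGGCGG) or an E box (CANNTG), read on either strand. None of the capitals overlap.
Ina: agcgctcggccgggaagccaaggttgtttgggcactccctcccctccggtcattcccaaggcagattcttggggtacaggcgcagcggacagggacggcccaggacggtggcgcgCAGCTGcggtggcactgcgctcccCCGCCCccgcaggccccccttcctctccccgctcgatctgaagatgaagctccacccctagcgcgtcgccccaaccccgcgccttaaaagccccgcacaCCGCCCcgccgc
Prph: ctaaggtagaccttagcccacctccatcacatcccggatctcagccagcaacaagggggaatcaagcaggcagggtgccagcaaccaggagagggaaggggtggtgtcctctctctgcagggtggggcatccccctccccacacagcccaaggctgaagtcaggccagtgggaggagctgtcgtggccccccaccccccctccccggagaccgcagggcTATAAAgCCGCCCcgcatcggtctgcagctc

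The Prph window held TATAAA at position -31 from the start, a match found in 12.4% of 32851 promoter windows of the same length. GGGCGG or its complement CCGCCC, found in 32.7% of windows, occurred at -111 and -12 in Ina, at -24 in Prph, and at -138 and -46 in Tubb3. CANNTG, found in 66.2% of windows, occurred at -135 in Ina. The cyclic AMP response element TGACGTCA (1.55% of windows) and an RE1 element (0.0335%), both searched on either strand, had no match in the windows of these 3 genes, which says only that these letters are not there. GC content was 70.8% in Ina, 65.2% in Prph and 68% in Tubb3, beside a median of 52.4% over all windows.

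Among the microtubule genes, Tubb3, the neuronal class III beta-tubulin, had the smallest ratio of the highest to the lowest library, at 2.72. Its values were 1469, 809 and 558 normalized reads in Gfi1+/+ and 539.6, 615 and 618 in Gfi1Cre/+. The third Gfi1+/+ library lay within the narrow range of the Gfi1Cre/+ libraries, whose highest value was 1.15 times the lowest. The log2 difference of Tubb3 was -0.56 ± 0.41 (SE), and -0.19 without Gfi1+/+ replicate 1.

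Mapt, which encodes tau, a protein that binds and stabilizes axonal microtubules, was at 576, 339 and 271 normalized reads in Gfi1+/+ and at 175, 236 and 194 in Gfi1Cre/+. All 3 Gfi1Cre/+ libraries were below all 3 Gfi1+/+ libraries. The group means were 396 ± 160.3 and 202 ± 31.3 normalized reads (SD, n = 3 each), and the log2 difference was -0.90 ± 0.35 (SE), a fold of 1.87 on this scale. Without Gfi1+/+ replicate 1 it was -0.60.

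Stmn2, a stathmin that binds tubulin dimers in growing axons, was at 652, 252 and 96.0 normalized reads in Gfi1+/+ and at 73.1, 119.8 and 117 in Gfi1Cre/+. The third Gfi1+/+ library fell between Gfi1Cre/+ libraries, and the log2 difference was -1.31 ± 0.83 (SE), or -0.62 without Gfi1+/+ replicate 1. Its brain-enriched relative Stmn4 was at 143, 30.4 and 24.3 normalized reads in Gfi1+/+ and at 7.83, 15.1 and 11.3 in Gfi1Cre/+. The Stmn4 groups did not overlap, yet the counts were small, with 9, 17 and 12 recovered reads in Gfi1Cre/+. The exact Poisson 95% interval of the highest Gfi1Cre/+ library ran from 8.79 to 24.2 normalized reads. That of the lowest Gfi1+/+ library ran from 15.4 to 36.4. These intervals, which cover counting error only, overlapped.

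The log2 difference of Stmn4 was -2.01 ± 0.83 (SE), the largest of the 10, and -1.22 without Gfi1+/+ replicate 1. Gap43, the growth cone protein, was at 351, 139 and 74.9 normalized reads in Gfi1+/+ and at 93.1, 102 and 80.2 in Gfi1Cre/+. Here the third Gfi1+/+ library was the lowest of all, and the log2 difference was -0.75 ± 0.65 (SE), or -0.16 without Gfi1+/+ replicate 1.

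Over the 10 genes the median log2 difference was -1.34, with a range from -2.01 to -0.56. It was -0.61 without Gfi1+/+ replicate 1, with a range from -1.22 to 0.28, whereas the median over all genes tested was -0.0001 and -0.001. More than 2-fold lower in Gfi1Cre/+ were 6 of the 10, beside 0.816% of all genes tested, and 1 of the 10 (Stmn4) without Gfi1+/+ replicate 1. Every Gfi1Cre/+ library was below every Gfi1+/+ library for 2 of the 10, Mapt and Stmn4, beside 4.07% of all genes tested. Without Gfi1+/+ replicate 1 the same genes were the 2 of the 10 whose groups did not overlap, beside 7.69% of all genes tested. As the genes were selected on this contrast, these counts carry no weight beyond describing them.

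**Figure D3:**
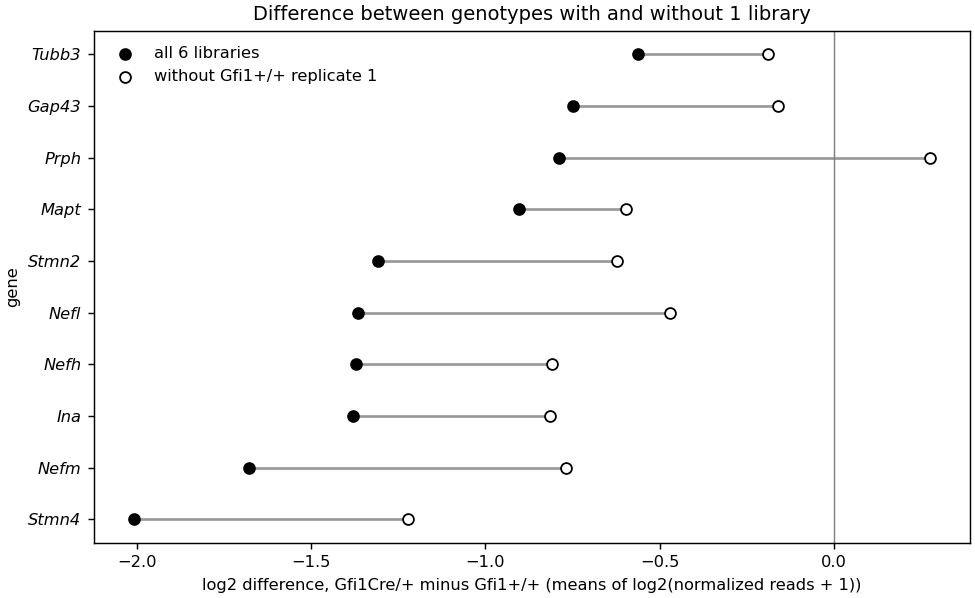
Difference between genotypes (x axis, Gfi1Cre/+ minus Gfi1+/+, means of log2(normalized reads + 1)) for the 10 genes (y axis), with all 6 libraries (filled) and without Gfi1+/+ replicate 1 (open). All open points lie closer to 0 or, for Prph at 0.28, on the other side of it.

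The spread within a genotype was wide. The SD of log2(normalized reads + 1) had a median of 1.24 over the 10 genes in Gfi1+/+ and of 0.43 in Gfi1Cre/+, beside 0.12 and 0.07 over all genes tested. Gfi1+/+ replicate 2 was between 1.25 (Mapt, Stmn4) and 2.63 (Stmn2) times replicate 3. Within Gfi1Cre/+ the highest library was between 1.15 (Tubb3) and 2.80 (Nefm) times the lowest. Single mice in 1 group and pools of 3 mice in the other cannot be told apart from genotype in this respect.

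Levels of different genes were compared as normalized reads per kilobase of merged annotated exons. In Gfi1Cre/+ the order began with Tubb3 at 316 ± 23.8 per kilobase (SD, n = 3), followed by Gap43 at 60.3 ± 7.22, Nefm at 57.2 ± 27.8 and Nefl at 55.8 ± 18.2. Neighbors in this order from Gap43 to Nefl, and Nefh after them at 40.4 ± 15.3, differed by less than their spread. Mapt was at 26.8 ± 4.15, Stmn2 at 18.4 ± 4.68, Ina at 17.9 ± 5.73, Prph at 12.7 ± 3.92 and Stmn4 at 5.96 ± 1.90 per kilobase. From Nefh to Mapt, and from Stmn2 to Ina and on to Prph, neighbors also differed by less than the larger SD of the pair.

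Gfi1+/+ replicate 1 had another order by this length. There Nefm (596 per kilobase) and Nefl (482) came directly after Tubb3 (786) and above Gap43 (230.2), and Mapt (76.5) had rank 9 of 10. Among the 14791 genes with an annotated length, Nefl stood at the 86.8th percentile of the per kilobase levels in this library and between the 25.1st and 49.6th in the other libraries. Tubb3 stayed between the 77.4th and 92.4th percentile in the 6 libraries. Stmn4 lay between the 1.76th and 10.9th percentile outside Gfi1+/+ replicate 1. With the length of the coding transcript in place of merged exons, Nefm had rank 2, Mapt rank 3 and Gap43 rank 4 in Gfi1Cre/+. In Gfi1+/+ replicate 1 that length put Nefm at rank 1, with 1034 per kilobase, above Tubb3, and Mapt at rank 5, with 256, so the order depends on the length used.

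Other genes of the axonal cytoskeleton had a smaller median difference than the axonal genes described above. As those were selected on this contrast, the comparison of medians is a description only. Gene by gene the log2 differences overlapped, with Crmp1 of the other genes at -1.04 and Tubb3 of the selected genes at -0.56. A list of 46 genes covered microtubule-associated proteins, tubulins, collapsin response mediators, the membrane skeleton, axonal motors and axon survival. Of these, 40 had a lower mean log2 level in Gfi1Cre/+, beside 50.1% of all genes tested. The median log2 difference of the 46 was -0.10. At an unadjusted p under 0.05 (limma), 6 of the 46 were lower, beside 2.02% of all genes tested, and 1 was higher, beside 1.02%. At an adjusted p under 0.05 the count was 0 by limma, edgeR and DESeq2 alike. Without Gfi1+/+ replicate 1, 2 of the 46 were lower at an unadjusted p under 0.05 (Map1a and Kif5a), beside 1.17% of all genes tested, 0 were higher, beside 0.927%, and the median log2 difference was -0.05. By mean log2 level, 33 of the 46 were lower without Gfi1+/+ replicate 1, beside 50.8% of all genes tested. The lists were written with earlier results of these data known.

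The lower genes included Crmp1, a collapsin response mediator of axon guidance, with a log2 difference of -1.04 ± 0.42 (SE from limma, unadjusted p = 0.0357). Kif5a, a neuronal kinesin that carries neurofilament cargo, differed by -0.78 ± 0.33 (unadjusted p = 0.0395), and its Gfi1Cre/+ libraries, between 409 and 432 normalized reads, were all below the Gfi1+/+ libraries at 1384, 593 and 459. Map1a, a microtubule-associated protein of mature neurons, differed by -0.77 ± 0.30 (unadjusted p = 0.0321). Dpysl5 and Cntnap1, the paranodal contactin partner, differed by -0.54 ± 0.22 and -0.26 ± 0.11. Dpysl2 differed by -0.24 ± 0.09. These log2 differences without Gfi1+/+ replicate 1 were -0.51 for Crmp1, -0.31 for Kif5a, -0.34 for Map1a, -0.33 for Dpysl5, -0.13 for Cntnap1 and -0.14 for Dpysl2. Stmn1, the widely expressed stathmin, was the 1 higher gene, at 0.36 ± 0.15 (unadjusted p = 0.0386), opposite in direction to Stmn2 and Stmn4, and at 0.28 without Gfi1+/+ replicate 1. The adjusted p was 0.999 (limma, Benjamini-Hochberg) for each of these 7 genes.

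Intermediate filament genes of other cells served as a comparison within the same protein family. Of 11 such genes, 5 were lower, beside 50.1% of all genes tested, and 6 higher, with a median log2 difference of 0.01. In limma 0 of the 11 reached an unadjusted p under 0.05, beside 2.02% of all genes tested lower and 1.02% higher. At an adjusted p under 0.05 the count was 0 in limma, edgeR and DESeq2. Vimentin (Vim), the main intermediate filament of mesenchymal and supporting cells, was between 14688 and 16631 normalized reads in Gfi1+/+ and between 15409 and 15991 in Gfi1Cre/+. Lmna and Nes likewise had overlapping groups, with log2 differences of 0.04 and 0.01. Gfap, the filament of astrocytes and some other glia, named here after its values were seen, shared the pattern of the axonal genes in part, at 307 normalized reads in Gfi1+/+ replicate 1, 73.3 and 72.8 in the other Gfi1+/+ libraries and between 69.8 and 123 in Gfi1Cre/+.

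Most neuronal markers were highest in the same library as the axonal genes. All 19 listed of 20 neuron markers had a lower mean log2 level in Gfi1Cre/+, beside 50.1% of all genes tested. The median log2 difference of the 19 was -0.75, or -0.33 without Gfi1+/+ replicate 1. Without that library all 19 were again lower, beside 50.8% of all genes tested. At an unadjusted p under 0.05, 5 of the 19 were lower in limma, beside 2.02% of all genes tested, and 2 (Syn1 and Eno2) without Gfi1+/+ replicate 1, beside 1.17%. In edgeR 8 of the 19 were lower, beside 2.62% of all genes, and in DESeq2 10, beside 2.01%, and 0 passed an adjusted p under 0.05 by any of these tools. The vesicle proteins Syn1 and Syt1 differed by -1.28 ± 0.50 and -0.24 ± 0.10, the SNARE protein gene Snap25 by -1.22 ± 0.47, Thy1 by -1.04 ± 0.44 and the neuronal enolase gene Eno2 by -0.75 ± 0.30 (log2, SE from limma). The log2 differences without Gfi1+/+ replicate 1 were -0.57 for Syn1, -0.16 for Syt1, -0.63 for Snap25, -0.44 for Thy1 and -0.33 for Eno2. The summed neuron markers ranged from 7109.5 to 11110.3 normalized reads in Gfi1+/+ and from 6843 to 7422 in Gfi1Cre/+, and Pou4f1 was not listed. Gfi1+/+ replicate 1 was the highest library for 15 of the 19, beside 3598 of 14455 genes tested. For Rbfox3 and Scn1a this rank was fixed, as only that library brought them to the minimum for testing. Slc17a7, Kcna1 and Ntrk3, named after their values were seen, were lower there than in the mean of the other Gfi1+/+ libraries, at ratios of 0.716, 0.808 and 0.834.

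In sums, the axonal genes spread more widely than these markers. As the axonal genes were selected on this contrast and on the weight of a single library, this comparison is a description only. The neuron sum is weighted by Ntrk2 and Uchl1, named as its highest genes. In Gfi1+/+ replicate 1 these were 1.05 and 1.36 times the mean of the other Gfi1+/+ libraries. Gene by gene, this ratio overlapped between the lists. It ran from 0.716 to 6.26 for neuron markers (median 2.30) and from 1.89 to 9.40 for the axonal genes (median 3.51). The sum of the 10 genes over the sum of the neuron markers was 0.869 in Gfi1+/+ replicate 1, 0.361 in replicate 2 and 0.264 in replicate 3. In Gfi1Cre/+ the same ratio was 0.199, 0.246 and 0.284. The ratio in Gfi1+/+ replicate 1 was thus far above the other libraries, and replicate 3 lay within the Gfi1Cre/+ range. The part of neuronal content in the axonal gene differences was not tested.

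Genes of the central nervous system were high in that library as well. Gfi1+/+ replicate 1 was the highest library for 3598 of 14455 genes tested. Of 11 central nervous system markers 6 were listed, and that library was the highest for all 6. Mobp, Mog, Olig1 and Olig2 reached the minimum for testing through Gfi1+/+ replicate 1 alone, so for them this rank was fixed by the filter. Only for Aqp4 and Slc1a2 could another library have been the highest. The sum of the 6 was 5136 normalized reads in Gfi1+/+ replicate 1, 1399 and 1377 in the other Gfi1+/+ libraries and between 1317 and 1392 in Gfi1Cre/+. Mobp, a protein of oligodendrocyte myelin, was at 2235 in Gfi1+/+ replicate 1 and between 4.19 and 27.0 in all others. Mog, another oligodendrocyte gene, was at 232 there, at 0 in both other Gfi1+/+ libraries and between 0.94 and 3.55 in Gfi1Cre/+. With the 0 counts set at a floor of 3 reads per library, Mog was at least 73.6-fold higher in Gfi1+/+ replicate 1 than in Gfi1+/+ replicates 2 and 3. Olig1, an oligodendrocyte lineage factor, was at 460.4 in that library and between 3.77 and 16.0 in the others. Ermn, Opalin, Gabra6, Pcp2 and Neurod6 were not listed in the table. Of the astrocyte genes, Aqp4 was at 595 against 225.5 to 268, and Slc1a2 at 1508 against 1071 to 1150.

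Myelin genes were split in this library. Mbp, myelin basic protein, used by oligodendrocytes and Schwann cells, was at 18871 normalized reads in Gfi1+/+ replicate 1 and between 2508 and 4216 elsewhere. Prx, periaxin of Schwann cells, was instead lowest there, at 637 against 763 to 1458 in the other libraries. Within Gfi1Cre/+ Prx was at 763, 1061 and 1458, lowest and highest in the same libraries as Nefl, Nefm, Nefh and Ina. Of 18 Schwann cell and satellite glia genes, 12 were lower in Gfi1Cre/+, beside 50.1% of all genes tested, and 6 higher. The median log2 difference of the 18 was -0.06. At an unadjusted p under 0.05 in limma the count was 0, beside 2.02% of all genes tested lower and 1.02% higher. At an adjusted p under 0.05 in limma, edgeR or DESeq2, 0 of the 18 passed. Their sum ranged from 49810 to 75061 in Gfi1+/+ and from 54698 to 64418 in Gfi1Cre/+. Mog, Olig1, Olig2 and Prx were chosen after their values were seen. The part of central and peripheral glial RNA in the axonal gene differences was not tested.

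**Figure D4:**
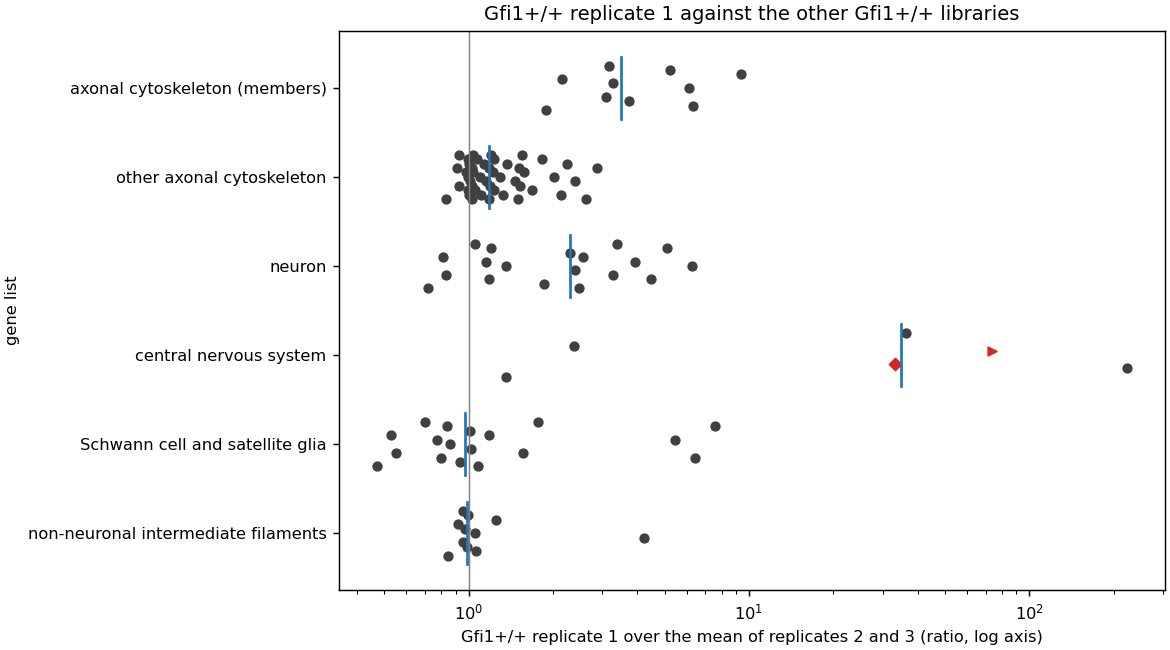
Ratio of Gfi1+/+ replicate 1 to the mean of replicates 2 and 3 (x axis, log scale) for each listed gene of 6 gene lists (y axis), with the median as a blue line. Red marks have at most 3 reads in both comparison libraries and are set against a floor of 3 reads (triangle, Mog, a lower bound; diamond, Olig2). The median is 3.51 for the axonal cytoskeleton genes, 2.30 for neuron markers, 1.18 for the other axonal genes and 0.973 for Schwann cell and satellite glia genes.

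Relative to the mean of Gfi1+/+ replicates 2 and 3, replicate 1 was 9.40 times as high for Prph, 6.33 for Nefm, 6.13 for Nefl, 5.24 for Stmn4, 3.74 for Stmn2, 3.27 for Gap43, 3.17 for Ina and 3.08 for Nefh. The ratio was smallest for Tubb3 at 2.15 and Mapt at 1.89. The median over all genes tested was 0.998. The axonal genes thus did not share a single ratio between these libraries.

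The lists for HCs, supporting cells, the stria vascularis, and bone and cartilage were compared in the same way. Of all genes tested, 50.1% were lower in Gfi1Cre/+. Of 13 HC genes, 10 were lower and 3 higher in Gfi1Cre/+, with a median log2 difference of -0.12. Of 11 supporting cell genes 7 were lower and 4 higher, and of 9 genes of the stria vascularis 2 were lower and 7 higher. All 10 bone and cartilage genes were higher, with a median log2 difference of 0.23. At an unadjusted p under 0.05 in limma 0 HC and 0 supporting cell genes differed. In that fit 1 of 9 stria genes (Kcne1, at 0.13) and 2 of 10 bone genes (Phex at 0.22 and Spp1 at 0.14) were higher. Beside these, 1.02% of all genes tested were higher and 2.02% lower. Of these lists, 0 genes passed an adjusted p under 0.05 in limma, edgeR or DESeq2. Without Gfi1+/+ replicate 1 the 3 calls at an unadjusted p under 0.05 were lost. In the same fit 2 of the 10 bone and cartilage genes were lower, beside 50.8% of all genes tested. The median log2 difference of that list was then 0.15. Atoh1 and Hes5 were not listed. The summed bone and cartilage genes ranged from 316154 to 441178 normalized reads in Gfi1+/+ and from 381374 to 408051 in Gfi1Cre/+. The sum was lowest in Gfi1+/+ replicate 1, where the axonal genes were highest. It is weighted by Col2a1, named as its highest gene, at 274391 in that library. By mean deviation of log2(normalized reads + 1), the list was instead lowest in Gfi1+/+ replicate 2, at -0.37 against -0.28 in replicate 1. The part of bone content was not tested.

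**Figure D5:**
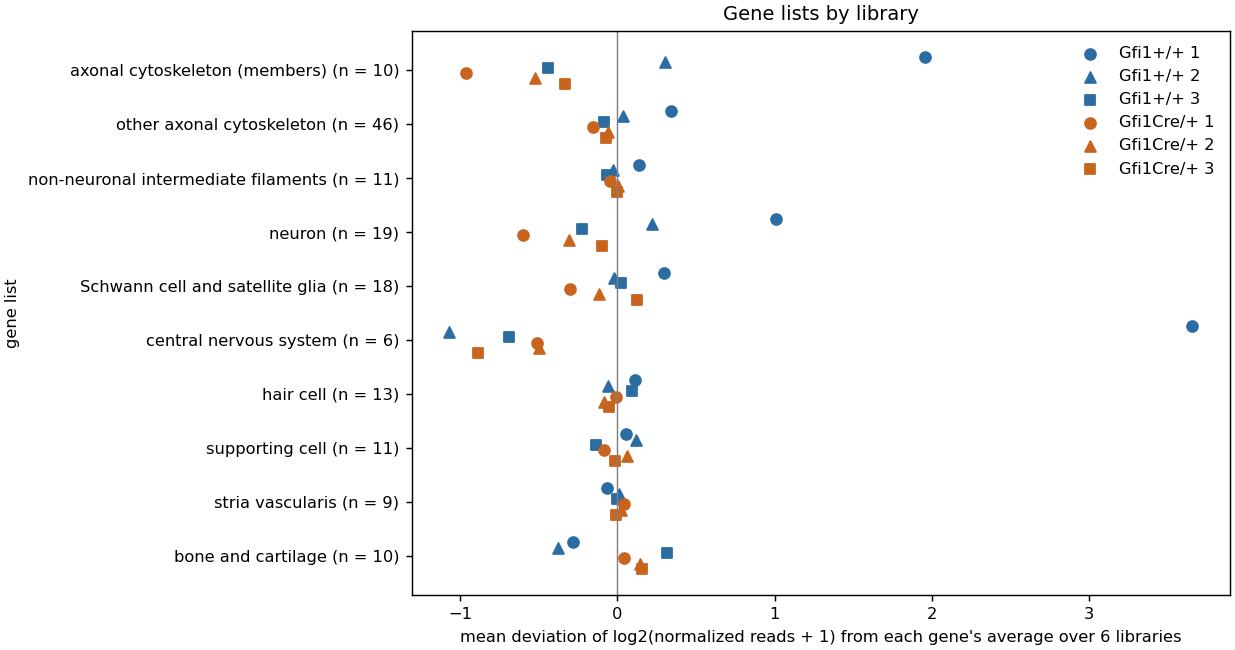
Mean deviation of log2(normalized reads + 1) from each gene's average over the 6 libraries (x axis) for each gene list (y axis, n genes tested), by library (blue Gfi1+/+, orange Gfi1Cre/+, symbol by replicate). Gfi1+/+ replicate 1 is at 1.95 for the 10 axonal cytoskeleton genes, 1.01 for neuron markers and 3.66 for the central nervous system genes, and at 0.34 for the other axonal genes.

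The 10 genes followed each other over the libraries. The Pearson correlation of each with the mean of the other 9, on standardized log2(normalized reads + 1) over 6 libraries, ranged from 0.879 for Prph to 0.992 for Nefl. Among 10359 other genes whose mean reached 200 normalized reads, those most like the mean of the 10 included Rnf157 (r = 0.997), Ndrg4 (0.994), Eno2 (0.993), Map1a (0.992), Gdi2 (0.989), Rab6b (0.988), Fez1 (0.986), Kif5a (0.985) and Trim37 (0.982). The points share Gfi1+/+ replicate 1 as an extreme, so these values describe 6 libraries. Gdi2 had a like order of libraries at a small amplitude, between 3487 and 3771 normalized reads in all 6 libraries.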

How the data were processed

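RNA from cochlear ducts at postnatal day 8 was sequenced by the authors as paired ends, with 3 libraries per genotype described as independent biological samples. The authors aligned reads to mm10 with TopHat, kept unique alignments and counted them with HTSeq. The annotation, strand setting and versions were not given in the sources used here. The deposited values are a signal per gene and library that the authors describe as quantile normalized. In each library 100% of the deposited signal values were whole multiples of 1 step (tolerance 0.0051 reads), so each equals a count of reads over 1 factor per library, and whole reads were recovered. Each of the 6 columns names its genotype and replicate.

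Genes that reached 40 normalized reads in any library (14455 of 14865) were fitted with limma (version 3.58.1, R 4.3.3) on log2(value + 1), which understates changes of low genes, with genotype as the only term, eBayes with a trend, two-sided, and Benjamini-Hochberg adjustment over all genes tested. The 10 axonal genes were described only, with the SE of the difference taken from both group SDs. The members and gene lists were chosen with earlier results of these data known. Genes named are the 10, per other list at most 6 at an unadjusted p under 0.05 by absolute log2 difference or else the 3 of highest mean, the 10 most correlated genes and Gfi1, and exceptions are stated. Dpysl2 (the seventh gene of its list) is an exception, named as the other 6 fill the limit.

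Alternatives were pseudocounts of 0.1 and 10, no filter, a mean of at least 200, eBayes without a trend, quantile normalization, TMM factors, edgeR (version 4.0.16) and DESeq2 (version 1.42.0) on recovered reads, the replicate number as a block, and each library left out. Exonic lengths, positions and overlaps came from GENCODE M21 (GRCm38), to which 14791 identifiers matched, and promoters from RefSeq (GRCm38.p6), which matched 3 of the 10 genes. Intervals and floors of 3 reads cover counting error only. A few genes that the naming rule would include are not reported here. The fit was tested on simulated counts.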

Additional observations from a re-analysis of the deposited data

How the results depend on the processing

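The median log2 difference of the 10 axonal cytoskeleton genes stayed below 0 in every alternative run, from -1.61 in DESeq2 and -1.59 in edgeR to -1.26 with a pseudocount of 10, and from -1.86 (without Gfi1+/+ replicate 3) to -0.61 (without Gfi1+/+ replicate 1) when 1 library was left out. With 1 library left out, Prph ranged from -1.44 (without Gfi1+/+ replicate 3) to 0.28, a reversed sign, without Gfi1+/+ replicate 1; it was -1.59 in edgeR and -1.62 in DESeq2, and no other gene of the 10 changed sign in any alternative. The 4 genes at an adjusted p under 0.05 became 0 with a required mean of 200 normalized reads and 10 in DESeq2, and 0 to 48 with 1 library left out (0 without Gfi1Cre/+ replicate 3, 8 without Gfi1+/+ replicate 2, 48 without Gfi1+/+ replicate 3). The 292 genes lower at an unadjusted p under 0.05 became 127 with the mean of 200 and 140 to 1257 with 1 library left out. They numbered 169 without Gfi1+/+ replicate 1, 1257 without Gfi1+/+ replicate 3, and 194, 140 and 165 without Gfi1Cre/+ replicates 1, 2 and 3. The 147 higher genes became 85 in DESeq2 and 76 to 1083 with 1 library left out (1083 without Gfi1+/+ replicate 3, 76 and 83 without Gfi1Cre/+ replicates 2 and 3). The 6 lower genes among the other 46 axonal genes became 0 in eBayes without a trend and 0 to 22 with 1 library left out, at 2 without Gfi1+/+ replicate 1, 22 without Gfi1+/+ replicate 3, and 0, 2 and 1 without Gfi1Cre/+ replicates 1, 2 and 3. Without Gfi1+/+ replicate 3, 4 of these 46 genes also passed an adjusted p under 0.05 (limma), against 0 in the other alternatives, as did 7 genes over all 9 comparison lists, these 4 included. The 5 lower neuron markers became 0 in eBayes without a trend, 2 with the mean of 200, and 0 to 14 with 1 library left out, with 0 without Gfi1Cre/+ replicate 1 or 2. The smaller set of genes tested lowers counts under the mean of 200, and for the rest the cause was not tested. Same-numbered libraries deviated with correlations of -0.0944, 0.107 and -0.0326, so the numbers were not taken to pair samples. With the replicate block the counts were 4, 301 lower, 161 higher and 7 of the 46, and the median of the 10 genes was -1.34. With 3 libraries per genotype, no outlier test within a group was made.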
